A study of Vitis vinifera with 12 samples.

Results

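The lipoxygenase route, which leads from membrane fatty acids to the six-carbon aldehydes and alcohols of green fruit aroma, was followed in berries of Victoria, a table-grape cultivar of Vitis vinifera, at 40, 50, 60 and 80 days after full bloom. The genes described are a list of 8 gene IDs drawn up for this work, and 6 of the 8 have a row among the 22580 IDs of the deposited table. The list assigns VIT_06s0004g01510, VIT_01s0010g02750 and VIT_09s0002g01080 to the lipoxygenases, VIT_12s0059g01060 and VIT_03s0063g01820 to the hydroperoxide lyases, and VIT_18s0001g15410 to the alcohol dehydrogenases under the name ADH1. A further hydroperoxide lyase (VIT_03s0063g01860) and the gene listed as ADH2 (VIT_04s0044g01120) were not analysed here. The table pairs no ID with a name, and 0 of the IDs could be found in the reference gene table (assembly ASM3070453v1), so the enzyme of each gene rests on the list. The reference table does hold a gene called ADH1 on chromosome 18, the chromosome that the first part of VIT_18s0001g15410 stands for.

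Each age is represented by 3 libraries, called a, b and c, of fruit of the same cultivar. The labels name no treatment or genotype other than the cultivar and do not say whether skin, flesh or seed was included. Tissue markers could not be looked up for want of gene names. Per the labels' protocols, RNA of several biological replicates was extracted separately and then pooled, so it is not settled that libraries a, b and c are separate biological samples. The p-values below speak of the spread among libraries alone, and that spread may be technical. Values are FPKM, fragments per kilobase of transcript per 1000000 fragments, and the depth behind them is unknown.

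Lipoxygenases add oxygen to the polyunsaturated fatty acids linoleic and linolenic acid, giving fatty acid hydroperoxides. Hydroperoxide lyases cleave these into a short aldehyde, such as hexenal, and a remaining oxo-acid, and alcohol dehydrogenases reduce the aldehyde to the corresponding alcohol. In crushed grapes and leaves the resulting aldehydes and alcohols are known for a grassy, green note. The same hydroperoxides also feed other branches, among them the synthesis of jasmonate, and alcohol dehydrogenases serve fermentation as well.

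The test took in the 14743 genes that reached 1 FPKM in 3 libraries or more, and 5 of the 6 listed genes were among them. A gene was called when its Benjamini-Hochberg adjusted p in limma was below 0.05 and its difference reached 1 on the log2(FPKM + 1) scale. A pair of libraries stood somewhat apart from their age, c of 40 days and a of 80 days. Over all tested genes their log2 values deviated from the age mean with an SD of 0.292 and 0.305, where the other libraries had 0.189 to 0.265. Without this pair of libraries the number of listed genes called was the same in every comparison.

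Of the genes listed for the route, 1 lipoxygenase and 1 hydroperoxide lyase were high at every age, and the alcohol dehydrogenase declined. The hydroperoxide lyase VIT_12s0059g01060 stayed between 336.5 and 479 FPKM on average at the 4 ages, and the lipoxygenase VIT_06s0004g01510 was next, with means between 116 and 256 FPKM. The alcohol dehydrogenase ADH1 fell early, and its mean at 40 days was 5.49 times that at 80 days. The lipoxygenase VIT_01s0010g02750 fell 2.36-fold between the same ages, and the lipoxygenase VIT_09s0002g01080 rose 6.08-fold from a level below 1 FPKM.

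Over the 4 ages, 4 of the 5 tested genes passed limma's moderated F test with a range of at least 1 between age means, as did 30.6% of all tested genes. By the F test alone the same number of listed genes passed, beside 73.1% of all tested genes. From 40 to 80 days 1 of the 5 was called higher and 2 were called lower, where 7.06% and 16.1% of all tested genes were called in these directions. The gene called higher, VIT_09s0002g01080, met the filter on low values only through the older ages, where it is high. Its place in the counts of this paragraph is therefore not read against the background. In 1 of the 5 the 3 libraries of 80 days all lay above those of 40 days, and in 3 they all lay below, which held for 25.9% and 38.5% of all tested genes. The median difference of the 5 genes was -0.52 on the log2 scale and that of all tested genes was -0.11.

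**Figure D1:**
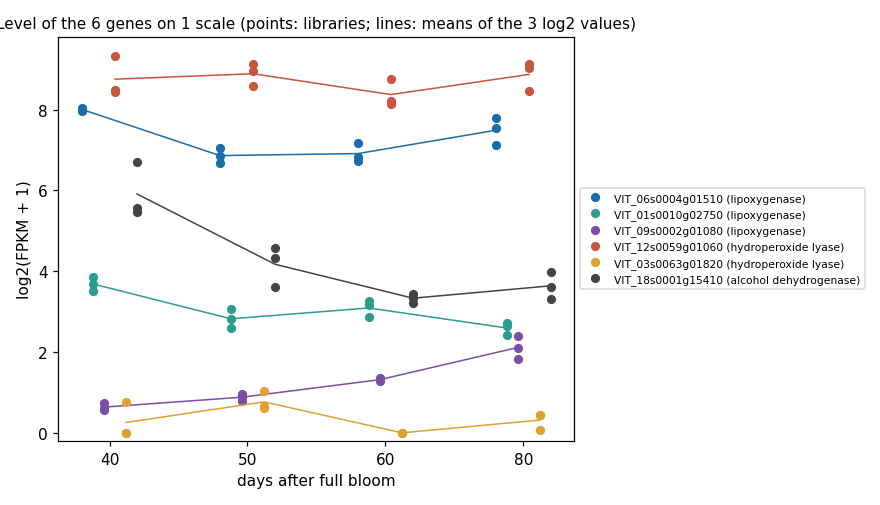
Level of the 6 listed genes as log2(FPKM + 1) against days after full bloom, with 1 point per library and lines through the mean log2 values of 3 libraries. The hydroperoxide lyase VIT_12s0059g01060 is on top at every age, and the alcohol dehydrogenase VIT_18s0001g15410 comes down to the level of the lipoxygenase VIT_01s0010g02750 at 60 days.

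The order of the genes by mean FPKM was the same at all 4 ages: VIT_12s0059g01060, VIT_06s0004g01510, ADH1, VIT_01s0010g02750, VIT_09s0002g01080 and VIT_03s0063g01820. The libraries of the first and second gene in this order did not overlap at any age. At 60 days ADH1 and VIT_01s0010g02750 overlapped, with means of 9.09 and 7.57 FPKM. At 40 and at 50 days the libraries of the 2 lowest genes overlapped. The distance between VIT_01s0010g02750 and VIT_09s0002g01080 closed from 21.5-fold at 40 days to 1.50-fold at 80 days, where their libraries still lay apart.

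The lipoxygenase VIT_06s0004g01510 held most of the lipoxygenase message of the list, and it was highest in the youngest fruit. It was at 250.3, 256 and 262 FPKM in libraries a, b and c of 40 days, at 132, 114 and 102 in those of 50 days, at 144, 106 and 112 in those of 60 days, and at 138, 186 and 222 in those of 80 days. All later libraries lay below all 40-day libraries, and the 50-day and 60-day libraries overlapped. Those of 80 days lay above those of 50 days while overlapping those of 60 days. The fall from 40 to 50 days was 2.21-fold between the means of 256 ± 5.81 (SD, n = 3) and 116 ± 15.1 FPKM, or a log2 difference of -1.14 ± 0.17 SE (limma adjusted p = 0.00031). Fruit is a mixture of tissues, and fewer cells of a type cannot be told apart from less RNA per cell here or in any value below.

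From 50 to 60 days the difference of VIT_06s0004g01510 was 0.05 on the log2 scale, with a 95% interval from -0.32 to 0.42. From 60 to 80 days it was 0.58 ± 0.17 SE (limma adjusted p = 0.020), past the p threshold and short of the minimum difference, with a ratio of means of 1.51. With each library scaled to the same sum the limma adjusted p of this step was 0.076, and without library b of 60 days it was 0.078. It was also above 0.05 without library c of 60 days (0.068), b of 80 days (0.057) or c of 80 days (0.072). In the fit of just the compared ages it was 0.0645. The difference lay between 0.42 and 0.76 with single libraries left out. At 80 days the mean was 182 ± 41.8 FPKM, and the difference from 40 days was -0.52 ± 0.17 SE (limma adjusted p = 0.019). This difference was not called, and its adjusted p was 0.054 with median-of-ratios scaling and 0.13 without the pair of libraries that stood apart (-0.32). The mean of VIT_06s0004g01510 took rank 636 of all IDs at 40 days, ranks 1262 and 1230 at the middle ages, and rank 833 at 80 days.

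VIT_01s0010g02750, another lipoxygenase of the list, was present at a low level and was lowest at the last age. Its values were 11.9, 13.5 and 10.4 FPKM in libraries a, b and c of 40 days, 5.04, 6.02 and 7.36 in those of 50 days, 6.26, 7.90 and 8.56 in those of 60 days, and 5.27, 4.37 and 5.55 in those of 80 days. The 40-day libraries lay above all others, and those of 80 days lay below those of 60 days while overlapping those of 50 days. From 40 to 80 days the gene fell from 11.9 ± 1.53 to 5.06 ± 0.616 FPKM (SD, n = 3), a log2 difference of -1.09 ± 0.16 SE (limma adjusted p = 0.00010). This is close to the minimum difference of 1: it was -1.001 with median-of-ratios scaling, and -0.75 with a pseudocount of 5, which ends the call.

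The steps within that course were each below the minimum difference. For VIT_01s0010g02750 the difference was -0.86 ± 0.16 SE from 40 to 50 days (limma adjusted p = 0.0011), 0.27 ± 0.16 SE from 50 to 60 days (limma adjusted p = 0.26) and -0.50 ± 0.16 SE from 60 to 80 days (limma adjusted p = 0.029). The limma adjusted p of the last step was 0.085 without library b of 60 days, 0.107 without c of 60 days and 0.0985 without b of 80 days. The 2 lipoxygenases that were highest at 40 days had differences of opposite sign in the last interval, 0.58 for VIT_06s0004g01510 and -0.50 for VIT_01s0010g02750. Neither was called. The ratio of VIT_06s0004g01510 to VIT_01s0010g02750 within a library was 16.5 ± 5.60 at 60 days and 36.3 ± 8.75 at 80 days, and its libraries did not overlap between these ages, with 22.9 as the highest at 60 days and 26.3 as the lowest at 80 days.

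The third lipoxygenase of the list, VIT_09s0002g01080, rose with age from a very low level. It was at 0.491, 0.654 and 0.522 FPKM in libraries a, b and c of 40 days, 0.951, 0.861 and 0.724 in those of 50 days, 1.43, 1.48 and 1.56 in those of 60 days, and 3.32, 2.58 and 4.24 in those of 80 days. Every library of an age lay above every library of the age before. The difference from 40 to 80 days was 1.48 on the log2(FPKM + 1) scale, a scale that understates change at this level. With a pseudocount of 0.1 the difference was 2.39, and with a pseudocount of 5 it was 0.59, which ends the call. The gene met the filter on low values only through the libraries of 60 and 80 days, where it is high, so its test is given from the fit without that filter. There the difference was 1.48 ± 0.13 SE (limma adjusted p = 9.3e-06).

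The largest step of VIT_09s0002g01080 was the last. In the fit without a filter the difference was 0.25 ± 0.13 SE from 40 to 50 days (limma adjusted p = 0.19), 0.43 ± 0.13 SE from 50 to 60 days (limma adjusted p = 0.058) and 0.80 ± 0.13 SE from 60 to 80 days (limma adjusted p = 0.0018). The last step was short of the minimum difference and was called with a pseudocount of 0.1 (1.10). Even so, the gene remained a small part of the class. Of the summed FPKM of the 3 listed lipoxygenases it held 0.207% ± 0.030 (SD, n = 3) at 40 days, and then 0.686% ± 0.029, 1.17% ± 0.19 and, at 80 days, 1.81% ± 0.46. VIT_06s0004g01510 held 95.4% ± 0.61, 94.2% ± 1.5, 92.8% ± 1.8 and 95.4% ± 1.2 at the successive ages. The sum of the 3 therefore followed that gene, at 268.7 ± 5.31, 123 ± 14.1, 129.6 ± 19.1 and 190.5 ± 42.3 FPKM at the 4 ages.

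**Figure D2:**
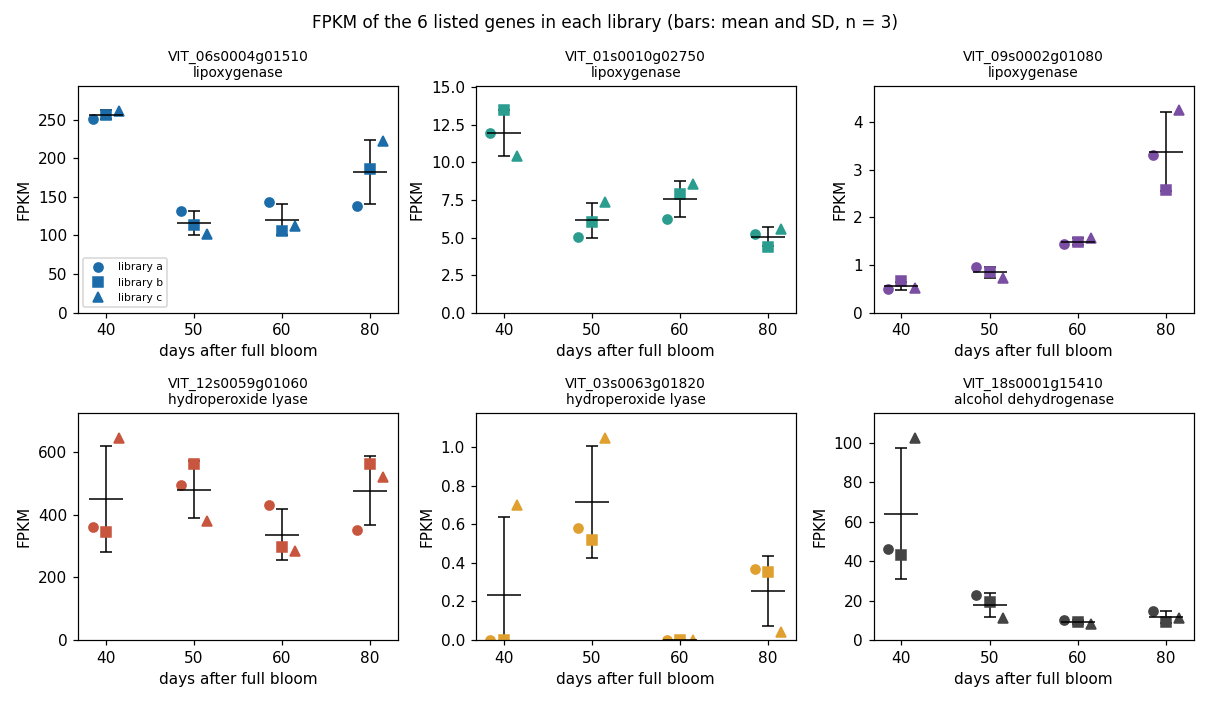
FPKM of each of the 6 listed genes in each library against days after full bloom, with 1 marker shape per library letter, and the mean and SD of 3 libraries as bars. Each panel has its own scale starting at 0. In VIT_12s0059g01060 and VIT_18s0001g15410 library c stands above the other 40-day libraries, at 646 and 103 FPKM.

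The hydroperoxide lyase VIT_12s0059g01060, whose enzyme class releases the aldehydes, was the highest gene of the list and passed the test in no comparison. It was at 359, 344 and 646 FPKM in libraries a, b and c of 40 days, 495, 561 and 381 in those of 50 days, 429.7, 296 and 283 in those of 60 days, and 351, 561 and 519 in those of 80 days. The libraries of each pair of ages overlapped. The means were 449.8 ± 170, 479 ± 90.8, 336.5 ± 80.9 and 477 ± 111 FPKM (SD, n = 3), and they ranked between 247th and 402nd of all IDs. The moderated F test of limma over the 4 ages gave an adjusted p of 0.28. Without library c of 40 days and library a of 80 days, a choice made after seeing the data, it gave 0.026. The range was then 0.71 on the log2 scale, short of the minimum difference.

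The spread of VIT_12s0059g01060 leaves room for moderate differences. From 40 to 80 days the difference was 0.12 on the log2 scale with a 95% interval from -0.47 to 0.71, and its sign turned with each library scaled to the same sum (-0.16). From 50 to 60 days it was -0.52 (95% interval -1.11 to 0.08), and from 60 to 80 days 0.50 (-0.09 to 1.09). Library c at 40 days held the highest value of all 12, and library a at 80 days the lowest of its age. Leaving both out, a choice made after seeing the data, therefore raises the difference from 40 to 80 days. It was then 0.62 (limma adjusted p = 0.035), and that from 60 to 80 days was 0.71 (limma adjusted p = 0.023). Both were below the minimum difference.

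The balance between the main lyase and the main lipoxygenase was highest at 50 days. The FPKM of VIT_12s0059g01060 was 1.75 ± 0.62 times that of VIT_06s0004g01510 at 40 days, and 4.14 ± 0.69, 2.77 ± 0.24 and 2.63 ± 0.35 times at the later ages. The ratios of all 3 libraries at 50 days, 3.73 or more, were above the 2.47 that was the highest at 40 days. Relative to ADH1 the lyase was 7.33 ± 0.90 times as high in the youngest fruit, and then 28.3 ± 6.11, 36.7 ± 5.91 and 44.1 ± 19.5 times. At 40 days both the lyase and ADH1 were highest in library c.

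The other hydroperoxide lyase with a row, VIT_03s0063g01820, was barely detected. It was listed at 0, 0 and 0.6998 FPKM in libraries a, b and c of 40 days, 0.581, 0.519 and 1.05 in those of 50 days, 0 in all 3 of 60 days, and 0.368, 0.351 and 0.0432 in those of 80 days. It reached 1 FPKM in 1 library only and was not tested. A value of 0 in such a table can be a failed estimate, and at this level the libraries of 40 days overlapped those of 50 and of 80 days. In its highest library its share of the FPKM of both lyases was 0.275%. VIT_03s0063g01860, the listed lyase that was not analysed here, is 4 steps away in the numbering, and whether reads are shared between these genes was not tested.

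The alcohol dehydrogenase ADH1 (VIT_18s0001g15410), the last step of the route as listed, fell between 40 and 50 days. It was at 46.3, 43.4 and 103 FPKM in libraries a, b and c of 40 days, 22.8, 19.1 and 11.3 in those of 50 days, 9.87, 9.09 and 8.31 in those of 60 days, and 14.8, 8.97 and 11.3 in those of 80 days. All 40-day libraries lay above all later ones, those of 50 days lay above those of 60 days, and those of 80 days overlapped both. From 40 to 50 days it fell 3.62-fold between means of 64.1 ± 33.4 and 17.7 ± 5.87 FPKM (SD, n = 3), a log2 difference of -1.74 ± 0.32 SE (limma adjusted p = 0.0014). From 40 to 80 days the difference was -2.27 ± 0.32 SE (limma adjusted p = 0.00010).

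Library c at 40 days had more than double the ADH1 value of the other 40-day libraries, and the falls were smaller without it. They were then -1.35 from 40 to 50 days (limma adjusted p = 0.0027) and -1.88 from 40 to 80 days (limma adjusted p = 0.00015), both still called. From 50 to 60 days ADH1 was at -0.84 ± 0.32 SE (limma adjusted p = 0.092), and this step was called in 1 alternative, without library c of 50 days (-1.12, limma adjusted p = 0.046). From 60 to 80 days the difference was 0.31, with a 95% interval from -0.40 to 1.02. Among all tested genes ADH1 stood above 83.4% at 40 days and 49.5% at 80 days.

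**Figure D3:**
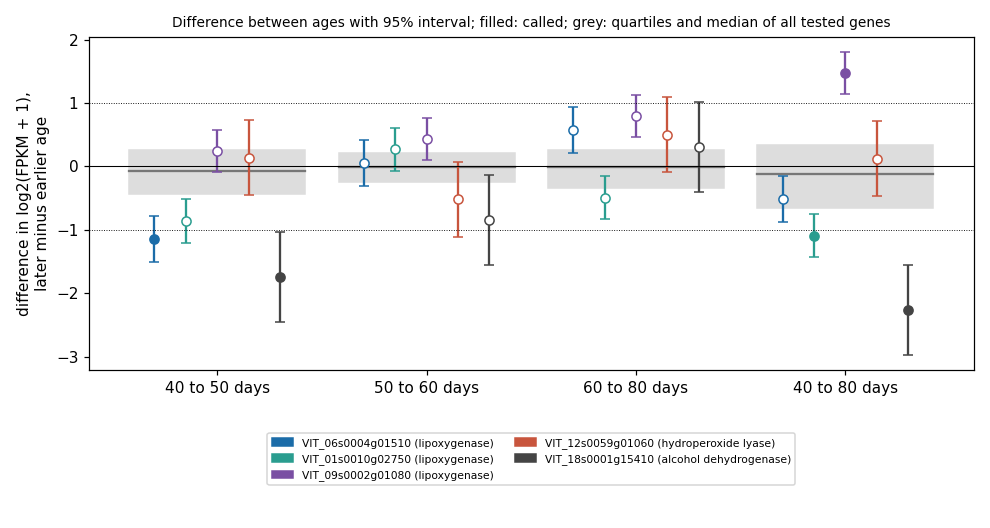
Difference in log2(FPKM + 1) between ages, later minus earlier, for the 5 tested genes, with 95% intervals. Filled points were called, dotted lines mark the minimum difference of 1, and grey boxes and lines give the quartiles and median of all tested genes. The calls are 2 falls from 40 to 50 days, and 1 rise and 2 falls from 40 to 80 days.

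Among the pairs of ages tested, the calls of the route were all made from 40 to 50 or from 40 to 80 days. The pairs 40 to 60 and 50 to 80 days were not tested, so whether a listed gene would be called there is not known. From 40 to 50 days 2 of the 5 tested genes, VIT_06s0004g01510 and ADH1, fell and 0 rose, where 8.43% of all tested genes fell and 3.44% rose. From 50 to 60 days 0 of the 5 were called by limma, where 4.32% of all tested genes were. Of the 5, 0 had an adjusted p below 0.05 in that interval, and ADH1 had an unadjusted limma p of 0.024. For VIT_09s0002g01080 the fit without a filter gave a limma adjusted p of 0.058. From 60 to 80 days 0 of the 5 were called, where 9.48% of all tested genes were, and 3 of the 5 had a limma adjusted p below 0.05 with a difference under 1. By adjusted p alone, 34.8% of all tested genes passed in that interval. VIT_09s0002g01080, which met the filter only through the older ages, is 1 of the 3 and is not read against that share. Intervals that share an age also share its libraries, and the last interval spans 20 days where the earlier ones span 10.

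The scaling of the libraries moved counts over the whole table and left the calls of the route in place. From 40 to 80 days the median of all tested genes was -0.11 as deposited, -0.02 with median-of-ratios scaling and -0.35 after scaling every library to a sum of 1000000, and 30.5%, 35.9% and 18.9% of the called genes were higher at 80 days. From 50 to 60 days 46.6%, 50.2% and 35.4% of the called genes were higher. The number of listed genes called in each direction was the same under all 3 scalings in each of these 4 comparisons. The difference of ADH1 from 40 to 80 days lay between -2.17 and -2.51 under them, and that of VIT_09s0002g01080 between 1.21 and 1.53.

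The 5 tested genes did not share 1 profile. Likeness was measured as the root-mean-square difference between mean-centred log2(FPKM + 1) values over the 12 libraries. The nearest pair was VIT_06s0004g01510 and VIT_01s0010g02750, both lipoxygenases, at 0.5, followed by VIT_06s0004g01510 and the lyase VIT_12s0059g01060 at 0.511. The third lipoxygenase, VIT_09s0002g01080, was at 0.797 from VIT_06s0004g01510 and at 0.927 from VIT_01s0010g02750. The farthest pair was VIT_09s0002g01080 and ADH1 at 1.49, the gene with the largest rise and the one with the largest fall from 40 to 80 days.

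Among all other tested genes, the profile nearest to VIT_09s0002g01080 was that of VIT_12s0035g00240, at 0.151 over 12 libraries. Its mean was 24.97 ± 1.41 FPKM in the youngest and 72.8 ± 7.72 in the oldest fruit, a log2 difference of 1.50. VIT_08s0007g03830, at 0.162, rose at a far higher level, from 1520 ± 95.6 to 3978 ± 307 FPKM. Nearest to ADH1 were VIT_18s0001g06940, at 0.187, and VIT_18s0117g00260, at 0.211. They went from 5.21 ± 1.93 to 0.341 ± 0.36 FPKM and from 9.18 ± 3.04 to 0.963 ± 0.55 FPKM between 40 and 80 days. These IDs are paired with no name. They were picked for their likeness on the log2(FPKM + 1) scale in the same libraries, so their rise or fall follows from the choice. Likeness on that scale is not likeness in fold, since the added 1 weighs most on low values. Between the same ages VIT_09s0002g01080 went from 0.556 to 3.38 FPKM on average, and ADH1 from 64.1 to 11.7 FPKM.

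The IDs next to the listed genes varied widely in level. Grapevine IDs are numbered in steps of 10 along a stretch of chromosome, and the rows up to 6 steps from a listed ID were taken as its neighbours, 73 in all. Of these, 39.7% stayed below 1 FPKM in every library, against 30.2% of all IDs. Beside VIT_06s0004g01510, the 4 neighbours of lower number reached at most 0.0928 FPKM in any library, and the highest mean among its 10 neighbours was 11.6 FPKM, while the gene itself was at 102 FPKM or more in every library. VIT_12s0059g01060 likewise stood above its 9 neighbours, whose highest mean was 73.2 FPKM. VIT_03s0063g01820 was low, with a mean of 0.301 FPKM, and so were many of its 11 neighbours. Their median mean was 0.266 FPKM, and 6 of them stayed below 1 FPKM in every library, while the highest mean was 460.4 FPKM. Of the 41 neighbours that were tested, 6 were called higher and 8 lower at 80 than at 40 days, which is 14.6% and 19.5% beside 7.06% and 16.1% of all tested genes.

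**Figure D4:**
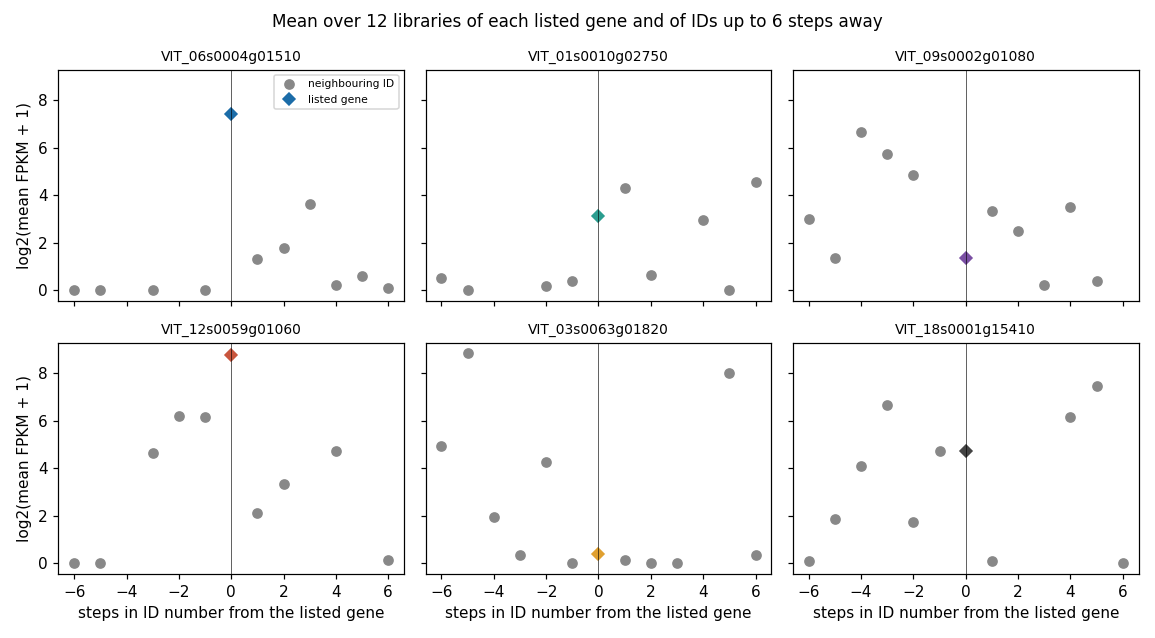
Mean FPKM over 12 libraries, as log2(mean FPKM + 1), of each listed gene (diamond, at 0) and of the IDs up to 6 steps away in the numbering (grey points). VIT_06s0004g01510 and VIT_12s0059g01060 stand above all their neighbours, and VIT_03s0063g01820 is near 0.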

How the data were processed

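RNA was sequenced from fruit of 1 cultivar at 4 ages, with 3 libraries per age. The authors deposited FPKM values in 1 table of 22580 IDs (21791 of VIT_ form and 789 new genes). Trimmomatic 0.36 and FastQC, and further TopHat2, Cufflinks and edgeR, are listed without roles in the submitters' processing notes. Build and annotation: not given in the sources used here. Per the labels' protocols, libraries were directional and made from polyadenylated RNA.

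Columns were matched to samples by the description in the labels, with 0 left over. FPKM values are not counts, so log2(FPKM + 1) values were fitted with limma 3.58.1 in R 4.3.3, with 1 mean per age, an intensity trend and 8 residual degrees of freedom, and p-values were adjusted over 14743 genes. The fit was tested on simulated data with independent normal noise and added changes larger than the minimum difference. That test cannot speak of pooled libraries, of low counts or of changes near the minimum difference. Depth is unknown, so no counting error is given. Python 3.11.15 with pandas 2.3.3, numpy 2.4.6 and matplotlib 3.10.9 made the summaries and figures.

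The listed genes, tests and alternatives were chosen with earlier results of these data known. Every listed gene was to be named, and of other IDs the 2 nearest in profile to the listed gene with the largest rise and the 2 nearest to that with the largest fall. Other genes of the pathway were to be found by product name, which no ID has, and no sequence was at hand for any listed gene.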

Additional observations from a re-analysis of the deposited data

How the results depend on the processing

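Pseudocounts of 0.1 and 5, no filter, a filter at 5 FPKM (which removes VIT_09s0002g01080), both scalings, a replicate block, a fit without intensity trend, adjusted p alone, fits of just the compared ages, and leaving out every library once were tried. Leaving out library c of 40 days with library a of 80 days was chosen after seeing the data. With a pseudocount of 5, 899, 299, 735 and 2011 genes were called from 40 to 50, 50 to 60, 60 to 80 and 40 to 80 days, and 2621 over the 4 ages, in place of 1750, 637, 1398, 3411 and 4507. Without a minimum fold the counts were 6429, 2852, 5137, 8870 and 10776. Of the listed genes, a pseudocount of 5 left 1 called from 40 to 80 days and 2 over the 4 ages, by construction of the scale. A pseudocount of 0.1 gave 1 from 60 to 80 days. Without a minimum fold 3 were called in that interval, 3 in place of 2 from 40 to 50 days and 4 in place of 3 from 40 to 80 days. The filter at 5 FPKM left 2 from 40 to 80 days and 3 over the 4 ages. With single libraries left out, 0 to 1 were called from 50 to 60 days. The replicate block gave 3404 genes from 40 to 80 days and changed no call of a listed gene. The letters were not taken to pair libraries: deviations from the age means correlated between -0.161 and 0.189 in the 18 same-letter pairs, above 0.1 in 4, and the same letter correlated best in 13 of 36 cases of a library against another age.

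The differences that changed sign were not called under any alternative run. VIT_06s0004g01510 from 50 to 60 days was at -0.048 with a sum of 1000000, and ranged from -0.082 to 0.15 when single libraries were dropped. VIT_12s0059g01060 was at -0.16 from 40 to 80 days with that scaling, and with single libraries left out between -0.044 and 0.41 for that comparison and between -0.026 and 0.43 from 40 to 50 days. The cause was not tested. Since depth is unknown, the counting error of low values, such as those of VIT_09s0002g01080 and VIT_03s0063g01820, could not be given.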
